A study of Mus musculus with 6 samples.

Results

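The genes described here build and serve the primary cilium and the centrosome. They are 56 genes chosen by name from 24594 entries of a count table of nuclear RNA from cerebellar granule cells. All 56 were found in the table. They fall into 17 genes of the distal appendages and the centrosome, 16 of the transition zone, 14 of intraflagellar transport (IFT), and 9 of the BBSome and the ciliary membrane. The choice was made with the comparison of genotypes in these same libraries in view, so what follows about that comparison describes the genes and supports nothing beyond them.

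The series holds 6 libraries from mice aged 7 months, 3 of the genotype Ezh1(wt/wt);Neurod1-Cre (WT) and 3 of the genotype Ezh1(cKO/cKO);Neurod1-Cre (cKO). Both groups carry Neurod1-Cre, whose name points to the promoter of Neurod1, a neuronal differentiation gene active in the granule lineage; the labels do not say how this Cre was placed in the genome or which part of Ezh1 it removes. Ezh1 encodes a catalytic subunit of Polycomb repressive complex PRC2, which methylates lysine 27 of histone H3. The study asks whether neurons that have stopped dividing need that mark to be kept up in order to regulate their genes. Nuclei were fixed, stained for the neuronal antigen NeuN and sorted, so the RNA is nuclear and the gate can hold NeuN-positive neurons other than granule cells.

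The primary cilium is a single, non-motile antenna that grows from the older centriole of the centrosome. Distal appendages dock that centriole at the membrane, the transition zone gates what enters, IFT trains carry cargo along the shaft, and the BBSome moves membrane proteins in and out. In the cerebellum, granule cell progenitors need the cilium to receive Sonic hedgehog, whereas mature granule cells have largely lost it and keep their centrioles.

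Levels are given in CPM, the count divided by the library's TMM-scaled total over tested genes and expressed per 1000000. Ezh1 stood at 71.2, 75.8 and 83.5 CPM in WT replicates 1 to 3 and at 52.7, 51.1 and 55.7 CPM in cKO replicates 1 to 3, the order used throughout. Every cKO library lay below every WT library (log2 fold change cKO over WT -0.53, standard error (SE) 0.10, adjusted p = 0.00672, edgeR quasi-likelihood test). An exact two-sided permutation test gave p = 0.1, and with 3 libraries a genotype it cannot give less. The libraries held 6340236 to 8284768 counts. Replicate 1 of each genotype stood apart from the other libraries in Xist, which is made only from an inactive X chromosome (814 and 833 CPM against 1.39 to 4.47 CPM). The sum of 4 Y-linked genes went the other way, at 1.52 CPM in WT replicate 1 and 2.45 CPM in cKO replicate 1. In the other libraries that sum was 123 to 148 CPM. Whether each library is a different mouse is not stated in the labels; p-values therefore cover the spread among these samples, some of which may be technical. Neurod1 itself, the gene the Cre is named for, was at 139, 154 and 135 CPM in WT and 318, 318 and 287 CPM in cKO (log2 fold change 1.11, adjusted p = 8.03e-10).

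The sorted RNA carried granule cell markers, with the receptor subunit gene Gabra6 at 159 ± 8.81 CPM in WT and 157 ± 5.51 CPM in cKO (SD, n = 3). Genes of motile cilia, which mark ependymal cells, summed to 182 to 187 CPM in WT and 167 to 195 CPM in cKO, and 11 of these 28 genes were under 1 CPM. The highest of them had a mean of 96.7 CPM and the median gene 1.54 CPM, so the sum rests largely on 1 gene. A separate list of ependymal and choroid plexus markers summed to 4.19 to 14.8 CPM in WT and 6.499 to 11.8 CPM in cKO. Of its 10 genes, 8 were under 1 CPM. Markers of astrocytes and Bergmann glia, which are ciliated in the adult cerebellum, summed to 626 to 678 CPM in WT and 577 to 710 CPM in cKO over 13 genes. Oligodendrocyte markers summed to 277 to 472 CPM and 332 to 735 CPM over 12 genes, all 12 with a positive log2 fold change and 0 called. Granule cell markers summed to 6030 to 6211 CPM and 5802 to 6960 CPM over 17 genes, of which Neurod1 was called higher and Neurod2 lower. Of other neurons the gate could hold, Purkinje cell markers summed to 491 to 704 CPM and 415 to 610 CPM over 9 genes, inhibitory interneuron markers to 121 to 142 CPM and 104 to 135 CPM over 9, and unipolar brush cell markers to 292 to 317 CPM and 289.5 to 308 CPM over 5. For the sums of each of these lists the genotypes overlapped. The unipolar brush cell marker Eomes was at 15.8, 6.14 and 9.003 CPM in WT and 21.6, 18.7 and 21.1 CPM in cKO (log2 fold change 1.00, adjusted p = 0.0868 by edgeR), without overlap, and limma-voom called it higher (1.116, adjusted p = 0.0240). In bulk RNA, fewer cells of a type and less RNA per cell cannot be told apart, and the part of other cell types in the values below was not tested.

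A DNA feature that the choice of genes did not use is the X-box, the site bound by RFX factors, which are known as activators of ciliary genes. Promoter windows of 300 bases (250 before and 50 after an annotated start, RefSeq, GRCm38.p6) were at hand for 50 of the 56 genes. They were searched on both strands for GTNNCC followed by 0 to 3 bases and NGNAAC, where N is any base. The motif was present for 18 of the 50 genes (36%) and for 716 of the 10377 tested genes that have a window (6.90%). By role, it was found for 9 of 15 transition zone genes, 4 of 15 genes of the appendages and centrosome, 3 of 9 genes of the BBSome and membrane and 2 of 11 IFT genes. A match is a description of the letters and not evidence of binding, and the windows of the members had about the base composition of the tested genes at large (median GC of 59.5% against 61%).

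The sites shown are, first, those of genes whose cKO libraries all lay below the WT libraries, then several with the motif near its inverted-repeat form. This order is for display and does not tie the motif to the genotype. Of 17 tested members with the motif 1 was called lower in cKO (median log2 fold change -0.11), and of 32 without it 4 were (-0.05). A relation between motif and fold change was not tested. Capitals mark the motif, and each is written 5′ to 3′ on the gene's strand with its GRCm38.p6 coordinates.
Erich3 (chr3:154711061-154711089, + strand): atgagaagGTTGCCTGGTGACcatagaat
Cep135 (chr5:76588680-76588707, + strand): gccgttacGTTTCCGGGCACcgagggcc
Bbs7 (chr3:36613489-36613518, - strand): gcgccccgGTTGCCTTGGAAACcggccagc
B9d2 (chr7:25680788-25680817, + strand): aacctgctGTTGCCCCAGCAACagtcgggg
Ahi1 (chr10:20952560-20952589, + strand): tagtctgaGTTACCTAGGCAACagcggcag
Tctn3 (chr19:40612351-40612379, - strand): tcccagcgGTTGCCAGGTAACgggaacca
Ift57 (chr16:49699226-49699254, + strand): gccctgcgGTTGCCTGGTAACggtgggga
The site of Erich3 lies 64 to 52 bases before an annotated start, that of Tctn3 140 to 128 bases before one, and that of Ahi1 22 to 35 bases after one. Each of these starts is internal to the gene's span.

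Among the genes that encode the RFX factors and other regulators of ciliary genes, 0 of 9 tested were called by edgeR. There 1 had an unadjusted p below 0.05, and 0 were called by DESeq2 or limma-voom. By edgeR 0.579% of all tested genes were called and 11.9% had an unadjusted p below 0.05, so these counts are near the shares over all genes. Rfx1 was at 108 ± 10.1 CPM in WT and 128 ± 5.52 CPM in cKO (log2 fold change 0.24, adjusted p = 0.240), and Rfx7 at 98.7 ± 1.54 and 110.5 ± 7.05 CPM (0.16, adjusted p = 0.466). Foxj1, the master regulator of motile cilia, had 16, 11 and 7 counts in WT and 8, 5 and 7 counts in cKO, too few to be tested.

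**Figure D1:**
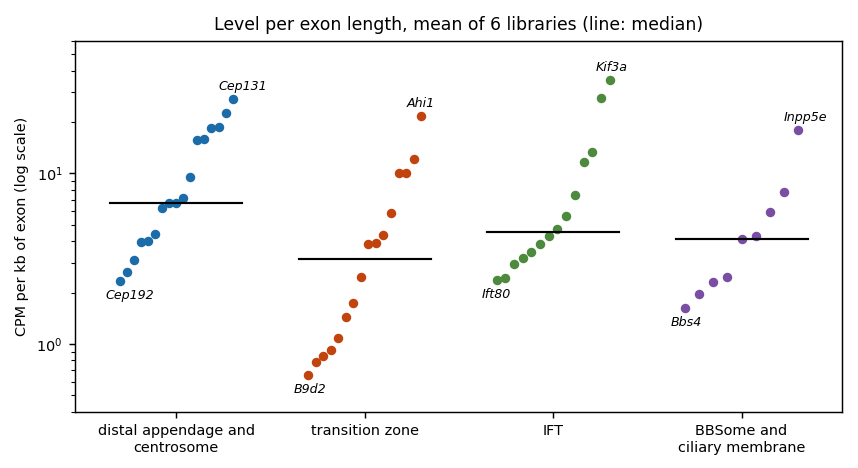
Mean level over the 6 libraries of each of the 56 genes, in CPM per kilobase of merged exon on a log scale, by role group, with points ordered by level and a line at the group's median. On this log scale the transition zone spreads most, from B9d2 at 0.66 to Ahi1 at 21.7.

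All 4 groups were present in these nuclei, and their levels spread widely. Per kilobase of exon, the median level was 6.71 CPM for the appendage and centrosome genes, 4.51 for IFT, 4.11 for the BBSome and membrane and 3.16 for the transition zone, against 4.05 for all tested genes. Kif3a, the kinesin-2 motor subunit that drives IFT outward, had the highest value at 35.1, followed by Ift172 at 27.6 and the centriolar satellite gene Cep131 at 27.1. The lowest were B9d2 at 0.66, Tmem216 at 0.78 and Tctn2 at 0.85, all genes of the transition zone. Which part of a gene was counted is not given in the sources used here. These values per exon length are therefore approximate.

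In the comparison of genotypes, 5 of the 55 tested genes were called lower in cKO and 0 higher. That is 9.09% lower, where of all tested genes 0.259% were called lower, 0.32% higher and 0.579% in either direction. A gene was called at an adjusted p below 0.05, over all 13115 tested genes. The 5 were Cep164, Erich3 and Cep131 of the appendages and centrosome and Rpgr and Cc2d2a of the transition zone, and 0 of the 14 IFT genes and 0 of the 9 genes of the BBSome and membrane were among them. At an unadjusted p below 0.05 there were 10 lower and 2 higher genes, where 6.05% and 5.8% of all tested genes stand. Every cKO library lay below every WT library for 11 tested members and above for 1, where 8.4% and 7.91% of all tested genes do so. By limma-voom 4 members were lower and 0 higher (0.252% and 0.335% of all tested genes). DESeq2 gave an adjusted p to only 22 members and called 5 lower and 0 higher (1.35% and 1.55% of the genes to which it gave one). Since these values entered the choice of the genes, nothing is read from the difference between the shares. B9d2 alone did not pass the filter on low counts.

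**Figure D2:**
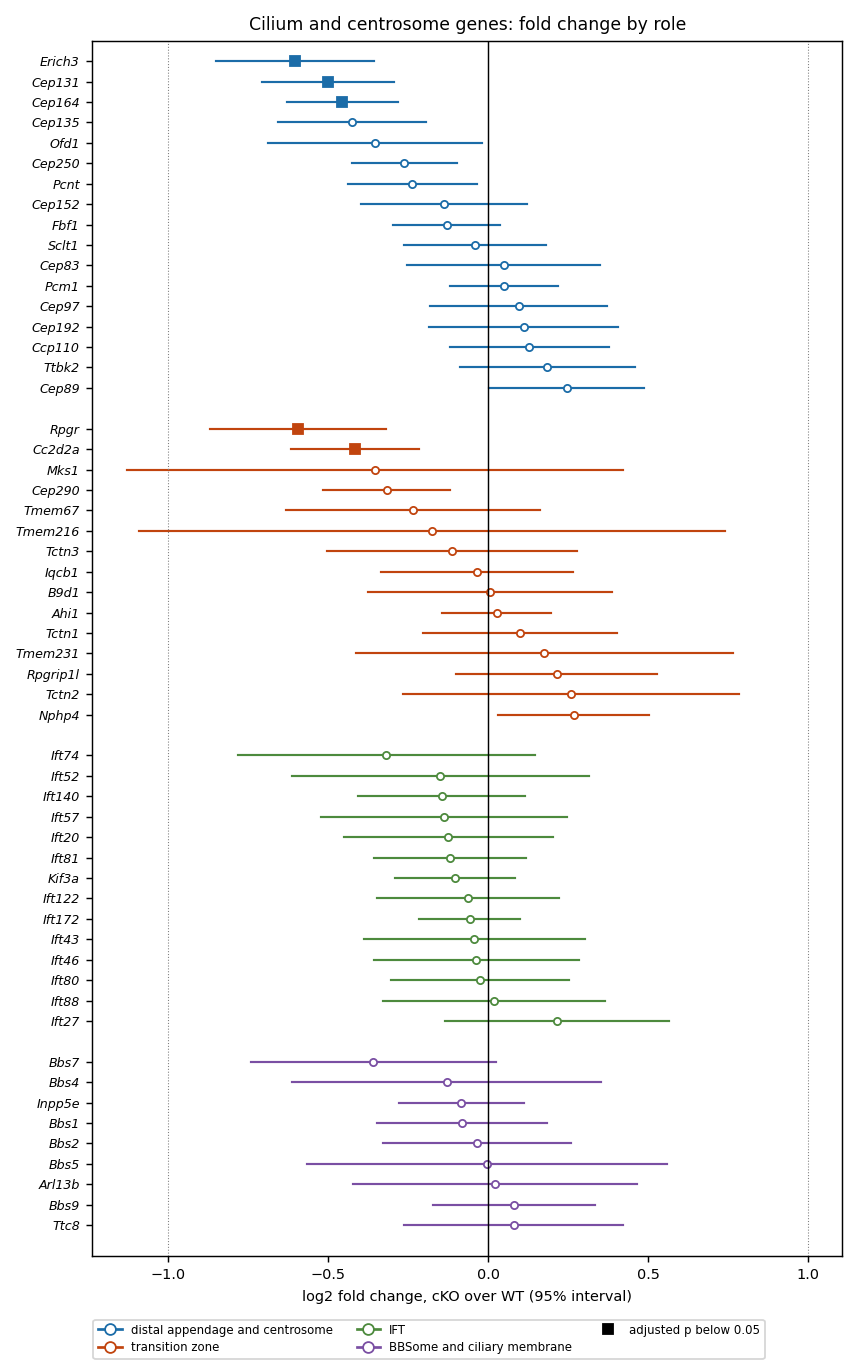
Log2 fold change (cKO over WT) with its 95% interval for the 55 tested genes, ordered within the 4 role groups; filled squares are genes with an adjusted p below 0.05 and dotted lines mark a change of 2-fold. The 5 squares lie between -0.60 and -0.42, and only Mks1 and Tmem216 have intervals that cross a dotted line.

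Cep164, which encodes the distal appendage protein that lets the centriole dock and recruits the kinase Ttbk2, lies on chromosome 9 (45766946 to 45828686, GRCm38). Its level was 173.6, 197 and 174 CPM in WT and 128, 143 and 126 CPM in cKO. The highest cKO library was well below the lowest WT library, and the mean was 27.1% lower (log2 fold change -0.46, SE 0.08, 95% interval -0.63 to -0.28, adjusted p = 0.00672). Of the other distal appendage genes 0 were called. Cep83, whose product anchors the appendage, had 0.05 (95% interval -0.25 to 0.35) on the log2 scale, Sclt1 of -0.04 (-0.26 to 0.18), Fbf1 of -0.13 (-0.30 to 0.04) and Cep89 of 0.24 (0.00 to 0.49). Ttbk2, the kinase that starts cilium growth, had 0.18 (-0.09 to 0.46). The cap proteins that block that growth were not called either, with Ccp110 at 0.13 and its partner Cep97 at 0.09.

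Cep131, whose product sits in the satellites that ferry proteins to the centrosome, was at 107, 141 and 118 CPM in WT and 77.0, 93.3 and 88.4 CPM in cKO. It was 29.2% lower in the mean (log2 fold change -0.50, SE 0.10, adjusted p = 0.0149), with WT replicate 2 the highest library and no overlap between genotypes. Pcm1, the scaffold of the same satellites, had a log2 fold change of 0.05 (95% interval -0.12 to 0.22), with cKO libraries among the WT libraries. Cep131 lies on chromosome 11 as Ezh1 does, 18.8 megabases away. Of the other 5 members on that chromosome, Mks1, at 13.3 megabases, and Fbf1, at 14.9, are nearer to Ezh1. Neither was called. Mks1, at only 3.71 CPM, had a log2 fold change of -0.36 (95% interval -1.13 to 0.42). Fbf1 had -0.13 (-0.30 to 0.04), with every cKO library below every WT library. Whether the distance to Ezh1 bears on these values was not tested.

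Erich3, which encodes a glutamate-rich protein linked to cilia, had the largest fold change of the 55. The values were 44.4, 51.1 and 47.6 CPM in WT and 29.4, 31.1 and 33.6 CPM in cKO, with a clear gap between the genotypes. The mean was 34.2% lower (log2 fold change -0.60, SE 0.12, 95% interval -0.85 to -0.36, adjusted p = 0.0135). Its promoter window carries the X-box shown above, and those of the other 4 called genes do not hold the motif.

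Cep135, which is needed to build the centriole's inner scaffold, was the gene just outside the threshold. It stood at 52.7, 59.8 and 53.4 CPM in WT and 40.7, 37.9 and 44.9 CPM in cKO (log2 fold change -0.43, SE 0.11, adjusted p = 0.0820), and DESeq2 called it lower (adjusted p = 0.0488). The next was Cep250, the protein of the linker that holds the pair of centrioles together, at 253, 280.1 and 239 CPM against 207, 221 and 216 CPM (-0.26, adjusted p = 0.137). Both had every cKO library below every WT library. Cep250 overlaps another gene, 6430550D23Rik, and their reads cannot be told apart.

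The remaining centrosome genes had fold changes of both signs. Pericentrin, encoded by Pcnt, the scaffold of the material around the centriole, differed by -0.24 on the log2 scale (adjusted p = 0.321), with overlapping groups, and Ofd1, which sets centriole length, one of -0.36 (adjusted p = 0.386). Cep192, which helps recruit the same material, was at 26.1, 34.6 and 23.5 CPM in WT and 30.2, 29.2 and 31.3 CPM in cKO, and had the lowest level per exon length of the group (2.33 CPM per kilobase). All cKO values of Cep192 lay inside the WT range (log2 fold change 0.11, adjusted p = 0.825). In all, 10 of the 17 genes of the group were negative and 7 positive, where 51.2% of all tested genes were negative. The median log2 fold change was -0.13, or -0.06 without cKO replicate 2, against -0.01 for all tested genes. For 7 of the 17 every cKO library lay below every WT library, where 8.4% of all tested genes do so. Since these values entered the choice of the genes, nothing is read from the difference.

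**Figure D3:**
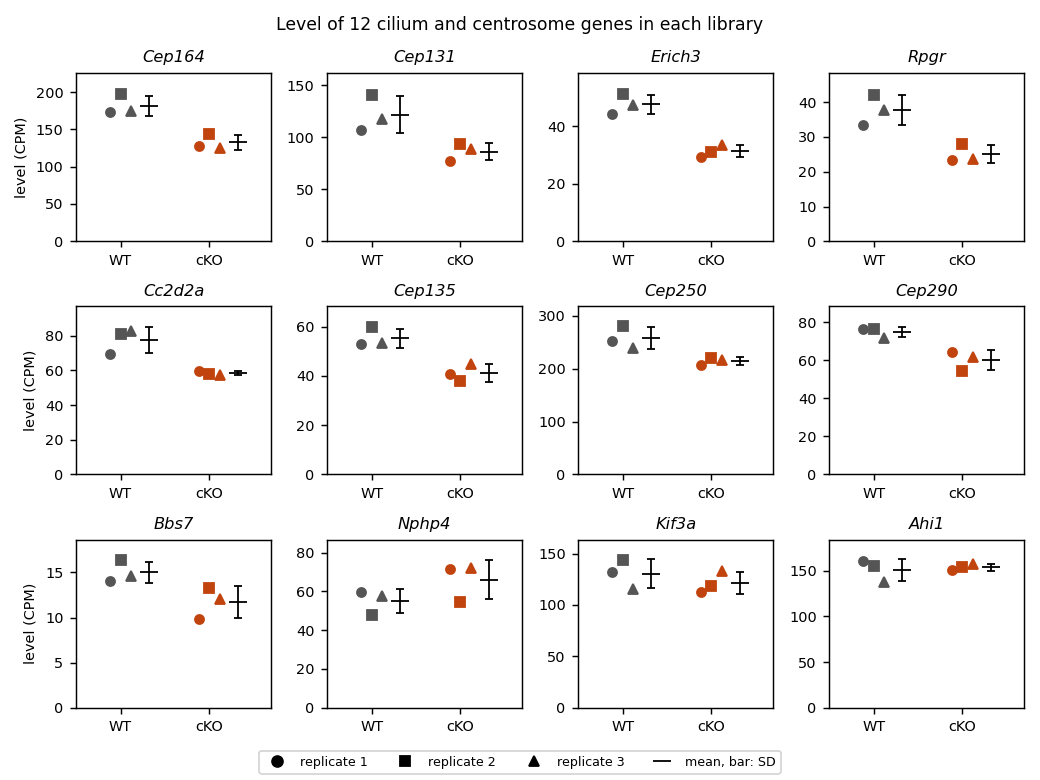
Level in CPM of 12 of the genes in each library, with WT in grey and cKO in orange, a symbol for each replicate, and the mean with its SD beside them; axes start at 0. For the 5 called genes and for Cep135, Cep250, Cep290 and Bbs7 the cKO points lie below all WT points, while those of Nphp4, Kif3a and Ahi1 overlap with WT.

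In the transition zone, Rpgr, the gene of an X-linked form of retinal degeneration whose product sits at the base of the cilium, was at 33.5, 42.2 and 37.7 CPM in WT and 23.5, 28.0 and 23.6 CPM in cKO. It was 33.7% lower in the mean (log2 fold change -0.59, SE 0.13, 95% interval -0.87 to -0.32, adjusted p = 0.0296). Replicate 1, the library with high Xist, was the lowest in WT. In cKO it was practically level with replicate 3, where Xist was low. A relation between Xist and the level of Rpgr was not tested. Cc2d2a, a gene of the module mutated in Meckel and Joubert syndromes, was at 69.2, 81.0 and 83.0 CPM in WT and 59.6, 57.9 and 57.6 CPM in cKO. The cKO libraries lay close together and all below WT (-0.42, SE 0.10, adjusted p = 0.0406), the value just inside the threshold.

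Cep290, which bridges the microtubules and the membrane of the transition zone, was at 76.5, 76.8 and 71.9 CPM in WT and 64.5, 54.5 and 61.6 CPM in cKO. The genotypes did not overlap, but the gene was not called (log2 fold change -0.32, SE 0.10, adjusted p = 0.140), and it overlaps the gene 4930430F08Rik. Nphp4, which overlaps Kcnab2, had the highest fold change of the 55 genes, at 59.5, 47.8 and 57.7 CPM in WT and 71.6, 54.6 and 72.2 CPM in cKO. There cKO replicate 2 lay among the WT libraries (0.27, SE 0.11, adjusted p = 0.343). Rpgrip1l, whose product assembles the same gate as Nphp4, was at 23.2, 16.8 and 18.7 CPM in WT and 23.2, 21.8 and 22.8 CPM in cKO (0.21, adjusted p = 0.642), and the groups overlapped.

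Ahi1, the Joubert syndrome gene with the highest level per exon length in the transition zone, was nearly level between genotypes. Its values were 161, 156 and 138 CPM in WT and 150.5, 154 and 158 CPM in cKO (log2 fold change 0.03, 95% interval -0.14 to 0.20). B9d2, of the B9 complex at the same gate, was counted 10, 10 and 12 times in WT and 3, 2 and 4 times in cKO. Every cKO library was lower, but at this depth it was under the filter on low counts. Without that filter it was not called (log2 fold change -1.65, adjusted p = 0.440). Its partner B9d1 had a log2 fold change of 0.01 (-0.37 to 0.39). The tectonic genes gave 0.10 for Tctn1, 0.26 for Tctn2 and -0.11 for Tctn3. Of the 15 tested genes of the transition zone, 8 were negative and 7 positive (median -0.04, or 0.03 without WT replicate 2), where 51.2% of all tested genes were negative.

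By each of edgeR, DESeq2 and limma-voom, 0 of the 14 IFT genes were called, and 0 had an unadjusted p below 0.05. By edgeR these shares were 0.579% and 11.9% over all tested genes, so little can be read from 0 among 14. Of the 14, 12 had a negative log2 fold change (85.7%, against 51.2% of all tested genes), with a median of -0.08. Their values share the libraries and the scaling, so their signs are not independent of each other. For 12 of the 14 the 95% interval lay within 1.5-fold in either direction (54.5% of all tested genes), and for all 14 within 2-fold.

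Kif3a was at 132, 144 and 116 CPM in WT and 112, 119 and 133 CPM in cKO (log2 fold change -0.11, 95% interval -0.29 to 0.08). Here the genotypes overlapped almost entirely. Ift57, an IFT-B subunit with an X-box shown above, was at 14.2, 15.2 and 13.02 CPM in WT and 15.4, 11.9 and 11.1 CPM in cKO, with overlap (-0.14, adjusted p = 0.833). The other subunits of the IFT-B complex included Ift74 at 7.58, 11.6 and 11.2 CPM against 8.66, 7.12 and 8.64 CPM (-0.32, adjusted p = 0.639, overlapping Lrrc19 and Mir872) and Ift81, its binding partner for tubulin, at 46.2, 48.3 and 41.2 CPM against 39.8, 43.3 and 41.7 CPM (-0.12, adjusted p = 0.740). In both genes at least 1 cKO library lay above the lowest WT library. Ift27, a small GTPase of the same complex that is needed for the exit of BBSome cargo, was at 12.4, 15.9 and 16.2 CPM in WT and 16.4, 19.0 and 16.4 CPM in cKO (0.21, adjusted p = 0.675). Its cKO libraries lay above all WT libraries by a narrow margin, and Ift88 (0.02) was the other IFT gene with a positive sign. Ift80, the member of the group with the lowest level per exon length, was at 33.2, 26.8 and 28.7 CPM and 31.2, 25.7 and 30.1 CPM (-0.03).

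Of the IFT-A complex, Ift140 was at 36.5, 34.8 and 42.0 CPM in WT and 37.1, 30.95 and 34.4 CPM in cKO (log2 fold change -0.15, 95% interval -0.41 to 0.11), and it overlaps Tmem204. Ift122 had -0.06 (-0.35 to 0.22) and Ift43 -0.04 (-0.39 to 0.30). The cKO values of these 3 genes overlapped with WT.

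The 9 genes of the BBSome and the ciliary membrane also held 0 called genes by edgeR, DESeq2 and limma-voom, and 0 at an unadjusted p below 0.05. By edgeR these shares were 0.579% and 11.9% over all tested genes, so little can be read from 0 among 9. Bbs7 was at 14.1, 16.3 and 14.6 CPM in WT and 9.81, 13.3 and 12.04 CPM in cKO. All its cKO libraries were below WT, and the gene was not called (log2 fold change -0.36, SE 0.19, adjusted p = 0.466). Among the other subunits of this cargo adaptor, Bbs4 stood at 13.5, 7.68 and 9.73 CPM against 11.8, 8.201 and 8.02 CPM (-0.13), Bbs9 at 37.4, 33.9 and 36.3 CPM against 33.9, 40.7 and 39.2 CPM (0.08), and Bbs1 at 34.9, 31.0 and 31.5 CPM against 28.4, 34.4 and 29.2 CPM (-0.08). The genotypes overlapped in these 3. Bbs4 had the lowest level per exon length of the group.

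Inpp5e, the phosphatase that sets the lipid make-up of the ciliary membrane, was at 87.9, 78.9 and 71.2 CPM in WT and 71.7, 79.1 and 73.5 CPM in cKO (log2 fold change -0.08, 95% interval -0.28 to 0.11). Its partner Arl13b, a GTPase of the membrane, had 0.02 (-0.42 to 0.47). For both genes the genotypes overlapped. Inpp5e shares part of its span with Pmpca.

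**Figure D4:**
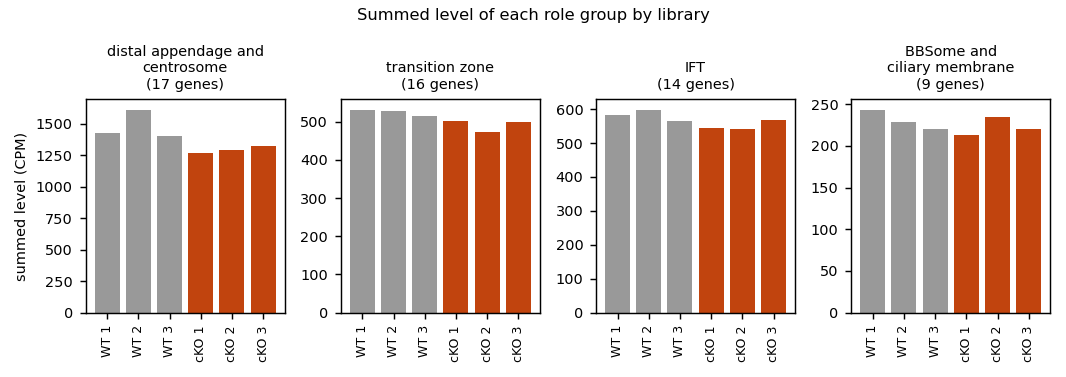
Summed level in CPM of each role group in each library, with WT in grey and cKO in orange; axes start at 0. The appendage and centrosome sum is highest in WT replicate 2, at 1612 CPM, and all cKO sums of that group and of the transition zone lie below the WT sums.

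Summed over all 56 genes, the level was 2788, 2968 and 2698 CPM in WT and 2528, 2545 and 2613 CPM in cKO (ratio of means 0.909). The 17 appendage and centrosome genes accounted for 72.3% of that difference and for 52.5% of the WT sum. Their own sum was 1430, 1612 and 1400 CPM in WT against 1267, 1294 and 1325 CPM in cKO (ratio 0.875). The ratio was 0.938 for the transition zone, 0.948 for IFT and 0.965 for the BBSome and membrane, and the genotypes overlapped for IFT and for the BBSome and membrane. With library size alone as scaling the transition zone sums overlapped too (0.959). Without the 5 called genes the other 51 gave 2361, 2455 and 2238 CPM in WT and 2210, 2191 and 2284 CPM in cKO, and the groups overlapped (ratio 0.948). The 5 genes were called lower in this same contrast, so leaving them out had to bring the sums closer.

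WT replicate 2 stood out within its genotype. It was the highest of the 6 libraries for 20 of the 56 genes and for 9 of the 17 appendage and centrosome genes. The share over all tested genes was not counted. Without WT replicate 2 the ratio of the appendage and centrosome sums was 0.916, and 0 of the 5 genes were called, though each kept its direction. Likewise 0 members were called without WT replicate 3, without cKO replicate 1, and without replicate 1 of both genotypes. Such losses were not particular to the members. Over all genes the calls fell from 76 to 18 without WT replicate 2 and to 13 without WT replicate 3. They fell to 14 without cKO replicate 1 and to 43 without replicate 1 of both genotypes. Rpgr was also not called without cKO replicate 3, and Cc2d2a not without cKO replicate 2 or cKO replicate 3. The highest adjusted p in the fits without 1 library was 0.118 for Cep164, 0.139 for Erich3, 0.216 for Cep131, 0.241 for Rpgr and 0.254 for Cc2d2a. Over these 6 fits the log2 fold change lay between -0.52 and -0.39 for Cep164, -0.65 and -0.55 for Erich3, -0.59 and -0.38 for Cep131, -0.68 and -0.51 for Rpgr and -0.49 and -0.36 for Cc2d2a. Cc2d2a was also not called by limma-voom (adjusted p = 0.0589), with library size alone as scaling (0.0633) or with replicate number as a block (0.0803).

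**Figure D5:**
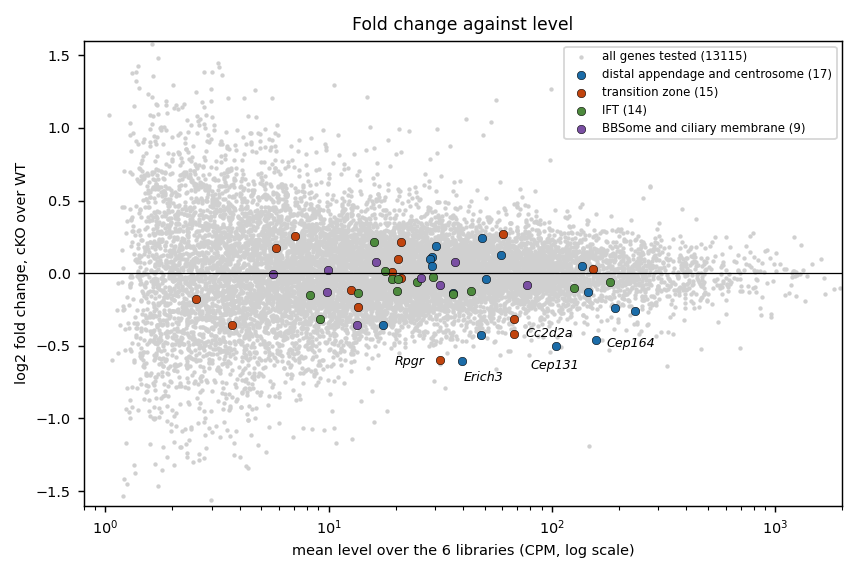
Log2 fold change (cKO over WT) against the mean level in CPM on a log scale, with all 13115 tested genes in grey and the 55 tested members coloured by role; 29 genes lie outside the plotted range. The 5 labelled genes lie above 30 CPM, and the grey cloud narrows as the level rises.

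Level bears on what could be seen. The 5 called genes are all among the 25 members at or above 30 CPM, of which 11 had an unadjusted p below 0.05, and 0 of the 30 tested members under 30 CPM were called, with 1 at an unadjusted p below 0.05. Over all tested genes at or above 30 CPM, 0.614% were called lower and 18.2% had an unadjusted p below 0.05, and under 30 CPM 0.0701% and 8.47%. The members' median SE was 0.11 above this level and 0.17 below it. For 53 of the 55 members (96.4%, against 81.0% of all tested genes, 99.1% of those at or above 30 CPM and 71.3% of those under it) the 95% interval lay within 2-fold, and a larger change was outside the interval of each. The 2 exceptions were Mks1 (-1.13 to 0.42) and Tmem216 (-1.09 to 0.74), both at a few CPM. Of the 56 genes, 14 overlap another entry of the table, and 0 of the 5 called genes do. Besides those named so above, they are Ofd1, Pcnt, Tmem67, Tctn1, Tmem216, Iqcb1, Ift122 and Arl13b.

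Other genes of the cilium and centrosome, in 8 lists drawn up by name, gave 1 called gene among 197 tested by edgeR (0.508%, against 0.579% of all tested genes). This was Tubg2, a gamma-tubulin of the ring complex from which microtubules grow, at 19.9 ± 4.07 CPM in WT and 11.4 ± 1.86 CPM in cKO (log2 fold change -0.81, SE 0.19, adjusted p = 0.0339), and it lies 29328 bases from Ezh1 on chromosome 11. Its call was lost without WT replicate 2 (adjusted p = 0.160), WT replicate 3 (0.278), cKO replicate 1 (0.261) or cKO replicate 3 (0.110), and limma-voom called it (0.0450), while DESeq2 gave it no adjusted p. Of the 63 tested genes in its list of other centriole and centrosome genes, 48 were negative (76.2%, against 51.2% of all tested genes, median -0.11). At an unadjusted p below 0.05 there were 8 lower and 1 higher, where 6.05% and 5.8% of all tested genes stand. This list was chosen with earlier results of these data known, so nothing is read from the differences. Odf2, a gene of the subdistal appendages in that list, was at 663 ± 77.7 and 547 ± 26.9 CPM (-0.28, adjusted p = 0.101); DESeq2 called it lower (adjusted p = 0.0400), and it is named after its values were seen.

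The other 7 lists held 0 called genes by edgeR, limma-voom or DESeq2. By edgeR 0.579% of all tested genes were called, 11.9% had an unadjusted p below 0.05 and 51.2% were negative. Of 24 further IFT and motor genes, 13 were negative (median -0.02, 2 at an unadjusted p below 0.05), with Wdr60 at -0.35 (adjusted p = 0.208) and Traf3ip1 at -0.26 (0.341). Of 25 further transition zone genes 12 were negative (median 0.02, 3 at an unadjusted p below 0.05), with Anks6 at 0.27 (adjusted p = 0.219) and Nek1 at -0.21 (0.386). Of 24 further trafficking genes 14 were negative (median -0.04, 4 at an unadjusted p below 0.05), with Rab34 at -0.72 (adjusted p = 0.165) and Ccdc28b at -0.25 (0.264).

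Ciliary receptors and the Hedgehog pathway, the best known signal of the cilium, had 23 tested genes with a median of 0.04, 3 lower and 3 higher at an unadjusted p below 0.05. Evc, which acts beside the transducer Smoothened, was at 4.83 ± 1.18 CPM in WT and 7.95 ± 1.74 CPM in cKO (log2 fold change 0.73, adjusted p = 0.264). Of 18 enzymes that modify tubulin 3 had an unadjusted p below 0.05, among them Tpgs1 at -0.63 (adjusted p = 0.171) and Ttll4 at 0.23 (0.303). Of 11 genes of cilium disassembly 0 did, with Nek7 at 0.75 (adjusted p = 0.568) and Ndel1 at -0.18 (0.656).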

How the data were processed

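The deposited data are raw gene counts for the 6 libraries in one file. The submitters' processing notes name Subread and mm10. The Subread version, the gene models and the strand setting were not given in the sources used here, and reads shared by genes that overlap cannot be assigned to either. NCBI gene identifiers were matched to symbols and spans of RefSeq GRCm38.p6 (24570 of 24594 entries), and merged exon lengths came from GENCODE M21, of the same assembly.

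Counts were tested in R 4.3.3 with edgeR 4.0.16: filterByExpr with defaults left 13115 genes, which were scaled by TMM and tested for genotype over all 6 libraries with robust quasi-likelihood fits. Adjusted p-values are two-sided Benjamini-Hochberg values of this test over all these genes unless another tool is named, and intervals are 95% intervals of the fit. DESeq2 1.42.0, limma-voom (limma 3.58.1), library size alone, the 4 most abundant entries left out, no filter on low counts, a replicate block and fits without a library were alternatives. The tests were tried on simulated data. Members and lists were chosen with earlier results of these data known.

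Genes named with values are the called members, in each role group the 5 of smallest p and those of highest and lowest level per exon length, and of each other list the called genes or the 2 of smallest p; others were named after their values were seen. The values of 1 gene that this rule selects are not reported here.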

Additional observations from a re-analysis of the deposited data

How the results depend on the processing

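Over all genes, 76 were called. The count was 116 by DESeq2, 277 without a filter on low counts, 43 without replicate 1 of both genotypes, and 13 to 249 in the fits without a single library. Of the cilium and centrosome members 5 were called, 0 without replicate 1 of both genotypes and 0 to 5 in the fits without a library. Of the other cilium lists 1 gene was called, 3 without a filter, 0 without replicate 1 of both genotypes and 0 to 3 without a library. The log2 fold change of Ezh1 was -0.58 to -0.47 without a library, and its call was lost without WT replicate 3 (-0.47, adjusted p = 0.115) and without cKO replicate 1 (-0.53, adjusted p = 0.0833). Same-numbered libraries deviated from their group means with correlations of 0.152, 0.00546 and -0.0382. The highest value, 0.152, was that of the replicates 1, which share high Xist. WT replicate 2 correlated best with cKO replicate 3 (0.0856), and WT replicate 3 with cKO replicate 2 (0.108). Deviations within a group of 3 offset each other, so these values cannot decide whether the numbers pair the libraries. With replicate number as a block 90 genes and 4 members were called, and the log2 fold change of Cc2d2a was -0.41. Without cKO replicate 2 the median log2 fold change of the appendage and centrosome genes was -0.06. Without WT replicate 2 the median log2 fold change was 0.03 for the transition zone and 0.01 for the BBSome and membrane, the latter 0.02 without replicate 1 of both genotypes. The median log2 fold change of the members stayed between -0.10 and -0.03 over all these settings, and their summed ratio between 0.890 and 0.934 over those run for it. DESeq2 gave no adjusted p to Rpgr, Tubg2 or B9d2. The cause of each lost call was not tested.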
